A study of Gallus gallus with 20 samples.

Results

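Trimethylation of histone H3 at lysine 4 (H3K4me3) was mapped in the lens of the chicken embryo, and the regions described here are its peaks that lay far from protein-coding gene ends. A peak was taken when it lay on an assembled chromosome, more than 5 kb from both ends of every protein-coding gene in the RefSeq gene table of the genome build GRCg7b. The rule was met by 1342 of 11079 H3K4me3 peaks, or 12.1% (95% interval 11.5 to 12.7%), and the other 9737 lay within 5 kb of an end. These are called far and near peaks. A limit of 2 kb would have taken 2035 peaks, one of 10 kb 894 and one of 50 kb 210. The gene table gives no strand, so start and end of a gene could not be told apart.

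Lenses came from embryos at embryonic day 4.5, about 44 of them in each of 3 pools, and no strain, sex or treatment other than the age is named in the labels. In CUT&RUN, the assay used, an antibody directs a nuclease to release the DNA around its target, here from 100000 nuclei for each reaction. Antibodies against H3K4me3, H3K27me3 (trimethylation of lysine 27) and JARID2 were used at 1 in 50, those against EZH2 and SUZ12 at 1 in 100 and that against AEBP2 at 1 in 25, with 3 libraries each, beside 2 libraries of non-specific IgG at 1 in 50. The deposited data used are 1 list of peaks per antibody, so no value has a spread over libraries, the read depth is unknown, and no difference below was tested. Intervals are exact binomial (Clopper-Pearson) 95% intervals, or order-statistic intervals for medians. They cover counting error only, and neighbouring peaks are not independent.

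H3K4me3 is laid down around sites where RNA polymerase II starts transcription, and in most tissues its peaks mark the promoters of active genes. A gene can have several promoters, so a peak deep inside a gene can lie at the start of a shorter transcript. Long non-coding RNAs and the primary transcripts of microRNAs have promoters of their own, often at a distance from any coding gene. H3K27me3 is placed by Polycomb repressive complex 2 (PRC2), of which EZH2 is the catalytic subunit, SUZ12 a core subunit, and JARID2 and AEBP2 accessory subunits.

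The lens label was set against marker genes. An H3K4me3 peak lay within 1 kb of an end of 10 of 10 lens markers, among them the crystallin genes CRYAA and CRYBB1 and the fiber genes BFSP1, BFSP2 and MIP; over all coding genes the share was 57.2%. The same was true of 1 of 6 blood markers (LMO2), 0 of 8 endothelial markers, 1 of 5 retinal markers (RAX) and 2 of 6 markers of periocular mesenchyme (PRRX1 and TWIST1). A single marker gene each of lens (GJA3), blood (PTPRC), endothelium (PECAM1) and retina (ELAVL4) was the nearest coding gene of a far peak. The part of other cell types in the far peaks was not tested.

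Most far peaks lay inside coding genes. A coding gene body held 1155 far peaks, 86.1% (84.1 to 87.9%), while 94.3% of all H3K4me3 peaks overlapped a coding gene. The remaining 187 far peaks lay between coding genes. Of the sequence more than 5 kb from coding gene ends, 53% lies in gene bodies, so the density of far peaks was 2.63 per Mb inside genes and 0.481 per Mb between them. Peaks of the other lists in the same sequence lay in gene bodies less often by these counts, with 47.3% of 13988 for H3K27me3, 58.2% of 11453 for EZH2, 66.3% of 31310 for SUZ12, 57.8% of 30138 for JARID2 and 45.7% of 147543 for AEBP2. Those lists differ in length, and the lists' own densities were not compared as amounts of binding.

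The median gap from a far peak to the nearest coding gene end was 14974 bp, with a lower quartile of 8298 bp and an upper quartile of 34875 bp. There were 448 far peaks at 5 to 10 kb, 363 at 10 to 20 kb, 321 at 20 to 50 kb, 139 at 50 to 100 kb and 71 beyond 100 kb. The share inside genes stayed between 83.3 and 89.2% over these 5 classes. Just inside the limit lay a peak in DCAF8 at 5001 bp with a fold of 2.32 and a width of 310 bp, and a peak in STIM2 at 5019 bp with a fold of 12.7 and a width of 1348 bp. Just outside it lay peaks in ELL at 4991 bp with a fold of 2.18, and in LBR at 4990 bp with a fold of 11.9.

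**Figure D1:**
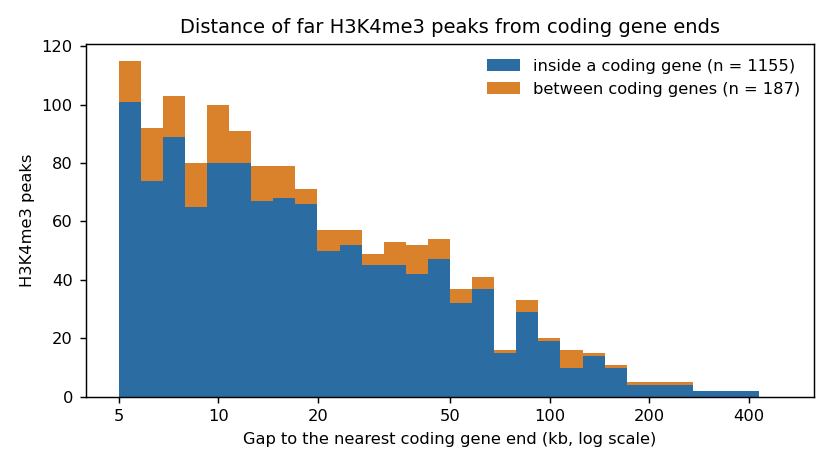
Number of far H3K4me3 peaks (y axis) by gap to the nearest coding gene end in kb (x axis, log scale), stacked by place. Peaks inside coding genes (n = 1155) make up most of every distance class; 448 far peaks lie at 5 to 10 kb and 71 beyond 100 kb.

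The chromosomes differed in how many far peaks they carried for the sequence available. Chromosomes 1 to 5, the large chromosomes, held 539 far peaks at 1.06 per Mb of sequence beyond 5 kb. Chromosomes 6 to 39 held 751 at 3.13 per Mb, Z held 51 at 0.695 per Mb, and W held 1. As a share of all H3K4me3 peaks the far peaks were closer together, with 11.8% on chromosomes 1 to 5, 12.5% on chromosomes 6 to 39 and 9.94% on Z.

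Far peaks were narrower and weaker than near peaks. The fold of a peak is the authors' value, the ratio of signal to the peak caller's background, and is used here within a list. Median width was 646 bp (595 to 702) for far and 1059 bp (1042 to 1074) for near peaks, and median fold was 4.71 (4.47 to 5.05) and 10.3 (10.1 to 10.7). Width and fold helped to choose the peaks in the first place, so these values describe the list. The peaks inside genes had a median width of 713 bp and a median fold of 5.07, and those between genes 399 bp and 3.86. A fold of at least 10 was reached by 355 far peaks, of which 93% lay inside a coding gene. For near peaks this share was 99.1% at a fold of 10 to 20 and 99.4% from 20 upwards.

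**Figure D2:**
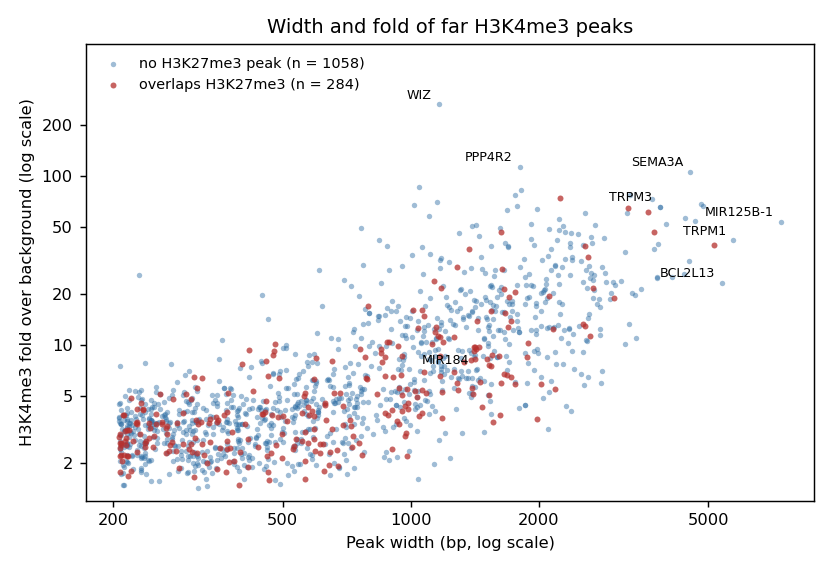
Each point is 1 far H3K4me3 peak, by width in bp (x axis) and fold over background (y axis), both on log scales. Points that overlap an H3K27me3 peak (n = 284) occur at all widths up to about 5 kb, and WIZ at a fold of 264 and the MIR125B-1 peak at 7417 bp stand at the edges of the range.

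The highest far peaks lay inside genes of widely different functions. The highest, at chr30:316820-317983 in WIZ, had a fold of 264, and the next reached 113. WIZ encodes a zinc finger protein that works with the H3K9 methyltransferases G9a and GLP. The second lay at chr12:16710360-16712161 in PPP4R2, a regulatory subunit of protein phosphatase 4. Its nearest gene end was that of the neighbouring gene GXYLT2, at 5755 bp. The third, with a fold of 106 and a width of 4533 bp, lay inside SEMA3A, 114 kb from its nearest end; the gene encodes a secreted axon guidance factor.

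Peaks followed in FOXJ3, a forkhead factor (85.2), ELMSAN1, a histone deacetylase complex component (82.3), FAM179B (77.3, nearest end that of the prolyl isomerase gene FKBP3), GNAS, the stimulatory G protein alpha subunit (76.5), TOX2, an HMG-box protein (74.2), the unnamed coding gene LOC107051757 (73.2) and EIF2B5, a subunit of a translation initiation factor (70.4). All of these 10 peaks lay in a gene body, and 1 of them, in TOX2, overlapped an H3K27me3 peak.

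The widest far peak, 7417 bp, lay between coding genes at chr24:3412696-3420112, 124 kb from the nearest coding gene end, that of SORL1, and it covered the microRNA gene MIR125B-1. The others of the 5 widest lay in genes. TRPM1, a cation channel gene, held a peak of 5724 bp with a fold of 41.4. BCL2L13, a mitochondrial protein of the BCL2 family, held one of 5387 bp with a fold of 23.3, and the transcription factor gene GATA3 one of 5149 bp with a fold of 38.7. PFKFB3, a regulator of glycolysis, held one of 4844 bp with a fold of 65.9.

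The peaks farthest from any coding gene end lay inside long genes, several of them with roles in neurons. TENM3, a teneurin of neuronal wiring, held a peak 405 kb from its nearest end with a width of 1693 bp and a fold of 12.7. A second peak of 221 bp lay beside it at 404 kb, with a fold of 2.24. BEND5 held a peak at 341 kb with a fold of 14.2, and the scaffold gene MAGI2 one at 330 kb with a fold of 20.3. LSAMP, a cell adhesion gene, held one at 285 kb with a fold of 5.79. The peaks in BEND5 and LSAMP also lay within 1 kb of an end of a long non-coding RNA gene, and those in TENM3 and MAGI2 lay at no non-coding end. The wide TENM3 peak overlapped an H3K27me3 peak of fold 22.1, which the other 4 did not.

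The genes that held far peaks were next compared with other genes. The 1155 peaks in gene bodies lay in 877 coding genes, 8.99% of the 9760 coding genes over 10 kb, the shortest length that can hold one. Of these genes 678 held 1 peak, 199 held at least 2 and 58 at least 3. Host genes had a median length of 68.5 kb, against 27.4 kb for genes over 10 kb without a far peak. The rule itself favours long genes, which have more sequence beyond 5 kb from their ends. Within classes of length they had more annotated transcripts, with medians of 4 against 2 for genes of 10 to 30 kb, 7 against 4 for genes of 30 to 100 kb and 11 against 6 for genes over 100 kb. Hosts were also the longer within each class, with median lengths of 20.9 against 16.9 kb, 56.6 against 48.2 kb and 170 against 156 kb. The classes thus did not make lengths equal. Whether a far peak coincides with the start of one of these transcripts was not analysed here.

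**Figure D3:**
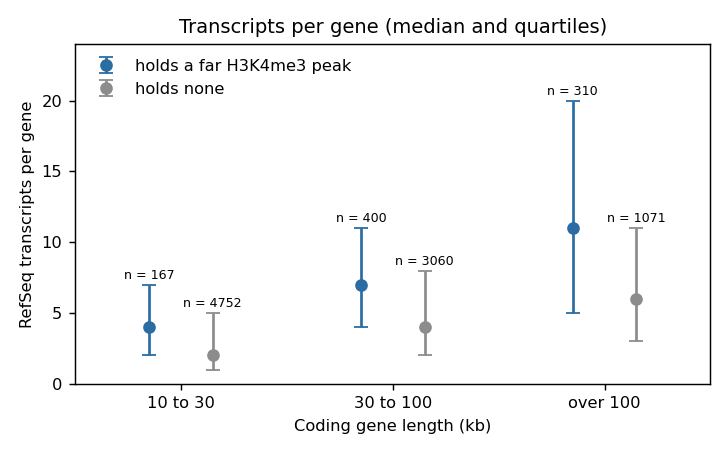
RefSeq transcripts per coding gene (y axis) by gene length in kb (x axis) for genes that hold a far H3K4me3 peak and genes that hold none. Points are medians and bars the quartiles over genes. Host genes have the higher median in all 3 classes, and are also the longer genes within each class.

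A gene was called marked at its ends when an H3K4me3 peak lay within 1 kb of either end. Of the host genes 356 were not marked in this way. For 445 far peaks, 38.5% of those in gene bodies, every gene that held the peak was unmarked. These are called peaks in unmarked hosts, and a peak with any marked host is counted with marked hosts. Among all coding genes over 10 kb, 35.2% were not marked. Counted by gene, 59.4% of host genes and 65.3% of genes over 10 kb without a far peak were marked. By length the marked share was 73.1% of hosts and 65.3% of other genes at 10 to 30 kb, 59 and 67.2% at 30 to 100 kb, and 52.6 and 59.9% over 100 kb, so the order turned in the shortest class. The peaks in unmarked hosts were wider and higher, with a median width of 936 bp and fold of 6.26, against 597 bp and 4.45 for the 710 peaks in marked hosts. A larger share of them also overlapped each of the other lists. H3K27me3 lay at 28.1% of peaks in unmarked and 16.3% in marked hosts, EZH2 at 72.6 and 56.6%, SUZ12 at 79.1 and 72%, JARID2 at 37.8 and 28.7%, and AEBP2 at 34.6 and 26.3%. Among peaks with a fold of at least 10 the shares for H3K27me3 were 20.3 and 6.78%, and for EZH2 81.7 and 77.4%. There they were 96.1 and 96% for SUZ12, 47.7 and 37.9% for JARID2, and 41.2 and 35% for AEBP2.

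Among peaks whose host genes were all unmarked, the highest lay in PPP4R2 (113), SEMA3A (106), TOX2 (74.2), LOC107051757 (73.2) and TRPM3 (65.6). A peak of fold 67.7 in TJP1, itself unmarked, is not ranked here because it also lay in a marked gene. The genes that follow were picked from the same order after their values were seen. SOX13, a SoxD transcription factor, held a peak with a fold of 60.8, and RSPO1, a secreted enhancer of Wnt signalling, one with a fold of 53.7. VGLL4, a cofactor of TEAD factors, held one with a fold of 51.2 and CTBP2, a transcriptional corepressor, one with a fold of 50.2 that lay 107 kb inside the gene. DMD, the dystrophin gene, spans 1164 kb in the table and held a peak with a fold of 31.6 at 80.7 kb from its nearest end. In each of these genes, a far peak stood where no H3K4me3 peak lay at either annotated end.

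TRPM3 and TRPM1 encode cation channels, and each holds a copy of the microRNA gene MIR204. In mammals miR-204 is known from lens and retinal pigment epithelium. In TRPM3 on chromosome Z, far peaks with folds of 65.6, 5.63 and 3.28 lay side by side, and another of fold 28.3 lay farther along the gene. The peak of fold 65.6, 3842 bp wide, overlapped no peak of the other 5 lists, and the one of fold 28.3 overlapped H3K27me3 (6.15), EZH2 (10.9), SUZ12 (7.42) and AEBP2 (7.16). MIR204-1 lay 25.9 kb from the nearest TRPM3 far peak. In TRPM1, MIR204-2 lay 8.77 kb from a far peak of fold 5.57, which adjoined the wide peak described above.

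Far peaks had 1012 nearest coding genes, 5.67% of all 17839, and 927 far peaks (69.1%) lay inside their nearest gene. A single far peak was assigned to 798 of these genes, 214 had at least 2 and 66 at least 3. The spacing of the peaks was also measured. Another H3K4me3 peak lay within 1 kb of 24.3% of far and 16.6% of near peaks, within 3 kb of 31 and 27.2%, and within 10 kb of 47.1 and 47.2%. Joined across gaps of up to 10 kb, the far peaks formed 1089 groups, of which 902 were single peaks and 41 held 3 or more, 148 peaks in all.

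Several transcription factor genes of lens development were the nearest gene of a far peak. The list of 34 lens factor genes, written with earlier results of these data known, had 14 members (41.2%) nearest to a far peak, beside 5.67% of all coding genes and 6.62% of those with a symbol. Beyond 10 kb the share was 23.5% (3.74% of all coding genes), and with far peaks of fold 5 or more 17.6% (3.21%), both settings chosen after seeing the data. Of the 35 neural and retinal factor genes matched, 2 (5.71%) were nearest to one, and of the 28 mesoderm and endoderm factor genes 0. The count was 9 of 35 (25.7%) for signalling genes, 3 of 26 (11.5%) for lens fiber genes and 1 of 15 (6.67%) for housekeeping genes. A far peak lay inside 26.5% of lens factor, 22.9% of signalling and 3.85% of lens fiber genes, beside 4.92% of all coding genes. For neural and retinal, mesoderm and endoderm, and housekeeping genes these shares were 2.86, 0 and 6.67%. The lists differ in gene length, with 19 of 34 lens factor genes, 12 of 28 mesoderm and endoderm factor genes and 8 of 35 neural and retinal factor genes over 10 kb. Of signalling genes 25 of 35 were over 10 kb, of lens fiber genes 10 of 26 and of housekeeping genes 4 of 15. The far peaks of the lens factor genes SOX1, SOX2, SOX3, SIX3 and TFAP2A lay between genes. The part of gene length, or of the space between genes, was not tested.

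Among lens factor genes, PAX6, which specifies eye and lens, held far peaks of fold 12.2 and 6.77 at 6.33 and 5.25 kb from its nearest end. The first was 1919 bp wide and overlapped a SUZ12 peak of 4.69, and the second overlapped none of the 5 lists. The SoxB1 factor gene SOX1 had a far peak of fold 12.3 at 52.5 kb that overlapped SUZ12 only, and a second of fold 3.67 at 6.46 kb, which overlapped H3K27me3 (5.31), EZH2 (8.56), SUZ12 (5.79) and JARID2 (3.29). Neither SOX1 peak lay in a coding gene.

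SOX2, a SoxB1 factor of lens and neural induction, had 5 far peaks, none in a coding gene. Their folds were 10.2, 4.51, 2.53, 2.33 and 2.14. The highest lay 47 kb from the gene, and the peak of 4.51 at 9.39 kb was the only 1 of these to overlap H3K27me3, at a fold of 4.36. All 5 overlapped SUZ12 peaks, with folds between 2.85 and 8.07.

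SIX3, a homeobox gene of eye and forebrain, had 7 far peaks on both sides of the gene. Their H3K4me3 folds were 7.19, 3.46, 2.79, 2.71, 2.47, 2.34 and 1.87. All but the highest overlapped H3K27me3, at folds from 2.37 to 7.06. Neighbouring far peaks shared the values 5.77 and 7.06, so these overlaps are not all with separate H3K27me3 peaks. The highest, 1266 bp wide at 8.4 kb, overlapped EZH2, SUZ12 and AEBP2. The gene itself carried H3K4me3 and no H3K27me3 peak within 1 kb of its ends.

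GATA3, which is needed for lens fiber differentiation in the mouse, had no H3K4me3 peak within 1 kb of its ends, but an H3K27me3 peak there. Its wide far peak at chr1:5018347-5023495 overlapped all 5 other lists, H3K27me3 at a fold of 7.08. NFIB, a nuclear factor I gene, was marked at neither end and held far peaks of fold 28.9 and 3.9, 95.2 and 96.8 kb from its nearest end. Both overlapped an H3K27me3 peak of fold 11.2. TFAP2A, an AP-2 factor of the surface ectoderm, had a pair between genes with folds of 4.01 and 2.3, both over H3K27me3.

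Another 6 lens factor genes had far peaks of fold 3.92 or less, and are named after their values were seen: SOX3 (3.92), PROX1 (3.78 and 3.36), MEIS2 (3.4 and 2.09), MAF (2.69 and 2.62), PITX3 (2.37) and NFIA (1.96). Of these, NFIA alone overlapped an H3K27me3 peak, and its fold there, 55.7, was among the highest of all far peaks.

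**Figure D4:**
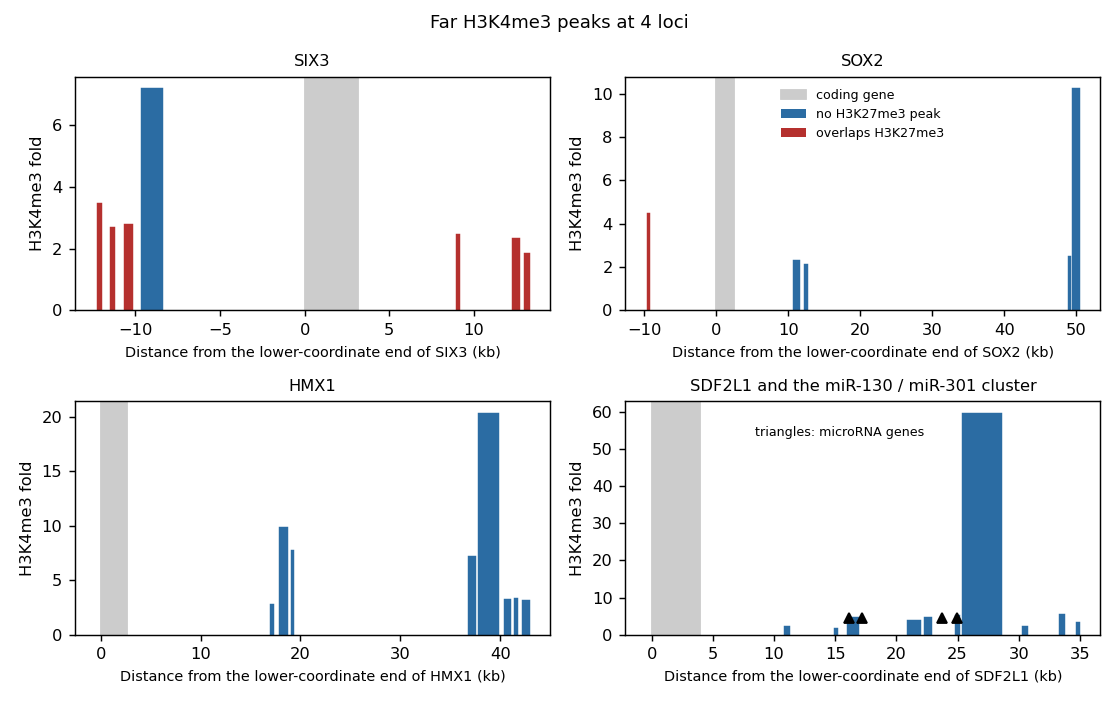
H3K4me3 fold (y axis) of the far peaks nearest to SIX3, SOX2, HMX1 and SDF2L1, drawn to scale by distance in kb from the gene's lower-coordinate end (x axis); the coding gene is grey and each bar is as wide as its peak. At SIX3 6 of 7 peaks overlap H3K27me3, some neighbours sharing an H3K27me3 peak, at SOX2 1 of 5, and at HMX1 and SDF2L1 none.

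Of the lens fiber genes, CRYBA1, a beta-crystallin gene, was nearest to a far peak of fold 40, which lay 8.18 kb away inside NUFIP2. VIM, the vimentin gene, was nearest to a peak of fold 11 in TRDMT1 at 13.6 kb. GJA3, a lens connexin gene, had a pair of far peaks with folds of 4.45 and 2.11. The 2 neural and retinal genes were LHX2, with folds of 6.39 and 3.59 inside the gene and both over an H3K27me3 peak of 49.5, and PAX2, with a fold of 4.81 at 61.7 kb over an H3K27me3 peak of 25.8. The housekeeping gene was PSMA1, a proteasome subunit, with a fold of 26.4.

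The highest folds among signalling genes lay in FGFR2 and SPRY1, genes of the FGF pathway, which drives lens fiber differentiation. FGFR2, an FGF receptor, held a far peak of fold 19.5 at 22.5 kb, and SPRY1, an intracellular inhibitor of receptor tyrosine kinase signalling, one of fold 19 at 6.57 kb. Neither gene was marked at an end, and both peaks overlapped H3K27me3, at 2.53 and 4.86. FGFR3 had a far peak of fold 5.28 without H3K27me3. The other listed genes of this pathway, FGF3, FGF8, FGF9, FGF10, FGF18, FGFR1, SPRY2 and DUSP6, neither held a far peak nor were nearest to one. PDGFRA and IGF1R, both growth factor receptors, reached 6.64 and 6.07, NOTCH1 3.66, WNT2B, a Wnt ligand, 3.48, and TGFB2, a TGF-beta ligand, 2.6.

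The genes nearest to the most far peaks were SDF2L1 with 10, ZFHX3 with 9, HMX1 with 8, FOXP1 and SIX3 with 7, PLA2G1B, LOC124417345 and NR6A1 with 6, and SOX2 with 5. The 8 far peaks at HMX1, a homeobox gene of eye and ear, all lay between genes, in a group of 3 at 14.3 to 16.4 kb and a group of 5 at 34.1 to 39.5 kb. Their folds ran from 2.79 to 20.4. None overlapped H3K27me3 or EZH2, and the highest, 2020 bp wide, overlapped no list.

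In ZFHX3, a large zinc finger homeobox gene, 6 of the 9 formed a group deep in the gene around a peak of fold 45.5 and width 2466 bp. None of these 6 overlapped H3K27me3, while the other 3 did, at 4.97, 10.2 and 22.2. The 7 far peaks of FOXP1, a forkhead factor, were led by one of fold 31.9 at 82 kb, the other 6 having folds from 1.98 to 5.09. NR6A1, an orphan nuclear receptor gene that holds MIR181A2 and MIR181B2, had peaks of fold 24.3 and 18.8 and 4 weak ones. The 6 peaks nearest to PLA2G1B all lay inside MSI1, an RNA-binding protein gene of neural progenitors, led by one of fold 56.2 and width 4409 bp that also lay at the end of a long non-coding RNA gene. Beside these groups of 6 in MSI1 and ZFHX3, the largest group held 11 far peaks and lay at SDF2L1.

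Non-coding genes were examined at the far peaks. An end of a non-coding gene lay within 1 kb of 163 far peaks, 12.1% (10.4 to 14%), beside 13.4% of all H3K4me3 peaks. Windows of this kind cover 1.98% of the sequence beyond 5 kb. That share counts single bases, while a peak counts when any part of it reaches a window, so the measures are unlike. The genes were long non-coding RNAs for 141 far peaks and microRNAs for 18. Of the 187 far peaks between coding genes, 41 (21.9%) lay at a non-coding end, beside 10.6% of far peaks inside coding genes. In all, 211 far peaks (15.7%) lay in a non-coding gene or at its end, close to the 14.7% of all H3K4me3 peaks. Counted by base, non-coding genes and these windows cover 12.6% of the sequence beyond 5 kb. The rest of the far peaks lay more than 1 kb from every gene end in the table. The long non-coding RNA genes at the highest far peaks, which include those in TOX2, MSI1 and GATA3, carry LOC identifiers only.

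Of 454 microRNA genes more than 5 kb from coding gene ends, 25 (5.51%) had a far peak within 1 kb. The highest stood beside MIR130A with a fold of 59.8, a width of 3228 bp and its edge 359 bp from the gene, at chr15:429762-432989. It belonged to the group of 11 far peaks at SDF2L1, a stretch that also holds MIR301A, MIR130B and MIR454. The other peaks of the group had folds of 5.69 or less. SDF2L1 was the nearest coding gene of 10 of the 11 peaks, the peak at MIR130A included. The MIR125B-1 peak followed, with a fold of 53.6.

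The MIR106A cluster, which holds MIR18B, MIR20B, MIR19B-2, MIR92-2 and MIR363 and is a paralogue of the growth-promoting miR-17 cluster, lay within 703 bp of a peak of fold 13.3 and width 3261 bp at chr4:3924531-3927791. MIR1-1, a microRNA known from muscle, lay under a peak of fold 11.1, and MIR12263, in DST, under one of fold 23.5. MIR12221-1 and MIR12221-2, in IQSEC1, shared one of fold 15.2, and MIR1607, in ARPP21, lay under one of fold 9.4. Of these peaks the one at MIR1607 overlapped H3K27me3, at a fold of 2.5.

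Of 44 microRNA genes on a list of those known from lens, retina, ectoderm or neural tissue or common in many tissues, 4 (9.09%) had a far peak within 1 kb, 7 (15.9%) within 10 kb and 12 (27.3%) within 50 kb, beside 3.13, 7.51 and 23.7% of all 799 microRNA genes. MIR184, known as abundant in the lens of mammals, and MIR184B, which overlaps it, lay under a peak of fold 7.21 and width 1429 bp at chr10:19997031-19998459, 7.33 kb from the nearest coding gene end, that of ANKRD34C. That peak overlapped none of the other lists. The neural microRNA gene MIR9-1 lay 139 bp from a peak of fold 8.11, which overlapped H3K27me3 at 37, EZH2 at 61.2, SUZ12 at 3.11 and JARID2 at 21.9. The MIR125B-1 peak overlapped EZH2 (2.12) and SUZ12 (5.32) only. The MIR204-2, MIR181A2 and MIR181B2 genes made up the difference to 7, at 8.77, 4.23 and 2.6 kb. MIR181A2 and MIR181B2 shared their far peak, as MIR184 and MIR184B did, so the counts are of genes and not of separate places. Clustered genes share far peaks among all microRNA genes too.

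The far peaks were then set against the other lists, an overlap of at least 1 bp counting as shared. H3K27me3 peaks overlapped 284 far peaks, 21.2% (19 to 23.4%), beside 16.8% of near and 17.3% of all H3K4me3 peaks. EZH2 overlapped 823, 61.3% (58.7 to 63.9%), beside 72.8% of near and 71.4% of all. SUZ12 overlapped 993, 74% (71.6 to 76.3%), beside 79.4% of near and 78.8% of all. Without regard to width, the far share was the higher for H3K27me3 and the lower for EZH2 and SUZ12.

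JARID2 overlapped 424 far peaks, 31.6% (29.1 to 34.2%), beside 37.4% of near and 36.7% of all. AEBP2 overlapped 385, 28.7% (26.3 to 31.2%), beside 30.9% of near and 30.6% of all. None of the 5 lists lay at 179 far peaks, 13.3% against 9.19% of near peaks, and all 5 lay at 57, 4.25% against 4.42%. The most common combinations were SUZ12 alone with 218 far peaks, EZH2 with SUZ12 and no other with 212, and none with 179. With each other list cut to its strongest peaks at the length of the H3K4me3 list, the overlap was 14.4% with H3K27me3, 31.8% with EZH2, 25% with SUZ12, 9.17% with JARID2 and 1.71% with AEBP2.

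Wider peaks have more room to overlap, and far peaks are narrower, so the shares were also compared within classes of width. Among peaks of 1 to 2 kb, H3K27me3 lay at 20.7% (16.5 to 25.6%) of 323 far and 12.1% (11.1 to 13.2%) of 3933 near peaks, and EZH2 at 80.5 and 79.9%. Among peaks of 0.5 to 1 kb the H3K27me3 shares were 23.4% (19 to 28.3%) and 18.3% (16.9 to 19.8%). In the other 3 classes the order was turned, with 22.9% (18 to 28.5%) of far and 29.9% (26.7 to 33.4%) of near peaks under 300 bp, 22.6 and 25.1% at 300 to 500 bp, and 11 and 13.3% from 2 kb upwards. In classes of H3K4me3 fold the far H3K27me3 share was likewise the lower below a fold of 5, with 27.8 and 33.8% under 3 and 20.6 and 30.2% at 3 to 5, and the higher above it, with 25.4 and 19.6% at 5 to 10, 14.4 and 10.2% at 10 to 20 and 9.94 and 5.73% from 20 upwards. The direction for H3K27me3 thus turned with the width and fold of the peaks compared.

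EZH2 had the lower far share in 4 of 5 classes of width. It lay at 43.2% of far and 53.1% of near peaks under 300 bp, at 49.6 and 58.6% at 300 to 500 bp, at 64.6 and 70.6% at 0.5 to 1 kb, and at 66.4% (58.2 to 74%) and 79.3% (77 to 81.5%) of those of 2 kb and more. JARID2 also differed among the widest, at 38.4% (30.4 to 46.8%) of far and 51.3% (48.5 to 54.1%) of near peaks. For SUZ12 the order of all peaks together turned in 4 of 5 classes, with 46.6% of far and 45.9% of near peaks under 300 bp, 63.5 and 57% at 300 to 500 bp, 76.9 and 75% at 0.5 to 1 kb, 93.5 and 90% at 1 to 2 kb, and 93.8 and 95.2% from 2 kb upwards. In a fixed window of 500 bp around the summit, H3K27me3 lay at 18.6% of far and 13.9% of near peaks. For EZH2 these shares were 58.9 and 68.7%, for SUZ12 70.9 and 75.3%, for JARID2 26.7 and 29.3%, and for AEBP2 24.6% in both. With the window fixed, the SUZ12 order was that of all peaks together. None of these differences was tested.

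**Figure D5:**
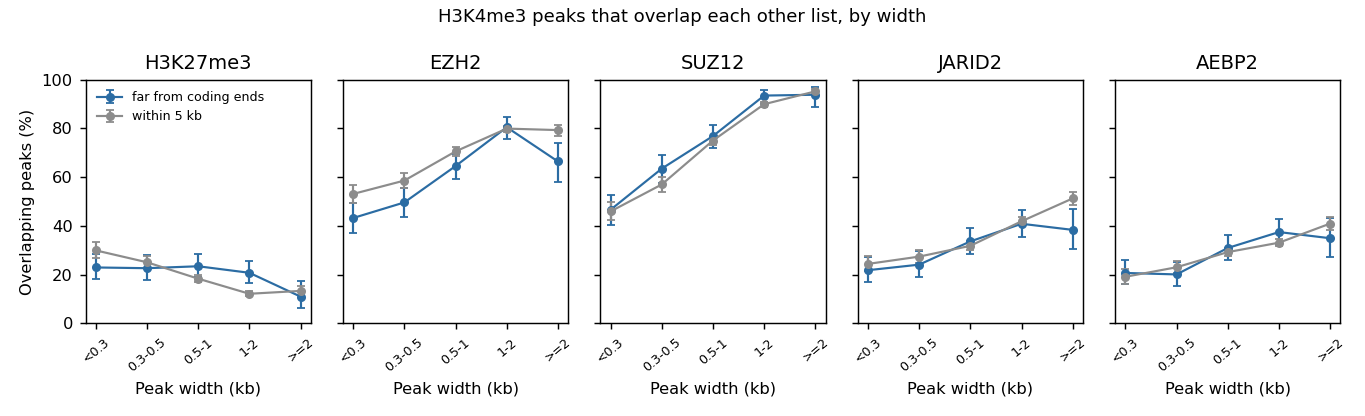
Percent of far and near H3K4me3 peaks that overlap each other list (y axis) by peak width in kb (x axis); bars are exact 95% binomial intervals. The H3K27me3 share is 20.7% for far and 12.1% for near peaks of 1 to 2 kb but 22.9 and 29.9% under 300 bp, and at 2 kb and more the EZH2 share is 66.4 and 79.3%.

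EZH2 also lay at 270 of the 284 far peaks with H3K27me3 (95.1%). Those 270 had a median H3K4me3 fold of 3.96 and the 14 without EZH2 one of 3.63, beside 4.71 for all far peaks. H3K27me3 without EZH2 was rare at near peaks too. There H3K27me3 alone lay at 0.195% and H3K27me3 with SUZ12 only at 0.164%, beside 0.596 and 0.373% of far peaks. In 175 far peaks the fold of the H3K27me3 peak was above that of the H3K4me3 peak; folds of different lists are on their own scales, so this only sorts the peaks. Those 175 had a median H3K4me3 fold of 3.43 and width of 448 bp, and the choice itself favours low H3K4me3 folds. Among far peaks with a fold of at least 10, H3K27me3 lay at 12.4%, and SUZ12 at 95.8%. Of near peaks with a fold of 10 to 20, H3K27me3 lay at 10.2% and SUZ12 at 87.7%. From a fold of 20 upwards the near shares were 5.73 and 91.7%. With increasing distance the H3K27me3 share was 18.8% at 5 to 10 kb, 20.7% at 10 to 20 kb, 20.6% at 20 to 50 kb, 27.3% at 50 to 100 kb and 29.6% beyond 100 kb.

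The highest H3K27me3 fold at a far peak was 73.7, in ADAMTS2, a procollagen-processing protease gene, where the H3K4me3 peak was 226 bp wide with a fold of 3.44. The far peak at chr6:29882740-29883021, 14 kb from the potassium channel gene KCNK18 and 282 bp wide with an H3K4me3 fold of 3.46, had an H3K27me3 fold of 64.5. It also had the highest EZH2 fold of any far peak, 172. Others of the 10 highest by H3K27me3 fold lay near TSPAN18, a tetraspanin gene (66), and in KIAA1257 (56.3), NFIA (55.7), SCHIP1 (54.8), DLG3, a synaptic scaffold gene (54.2), MECOM, a zinc finger transcription factor gene (53.2), and LHX2 (49.5). The remaining 1 of the 10, with an H3K27me3 fold of 71.7, lay nearest to the unnamed coding gene LOC121111114. It had an H3K4me3 fold of 9.19, while the other 9 had H3K4me3 folds of at most 4.2. Another LHX2 far peak, with an H3K4me3 fold of 6.39, tied with the last of the 10 at 49.5 and was left out by the cut.

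The 5 far peaks with the highest fold were then taken from each PRC2 list. Among those of EZH2, beside the KCNK18 peak, neighbouring far peaks near SOCS2, an inhibitor of cytokine signalling, shared an EZH2 peak of 57.5. The limit of 5 cut through this tie, so not all far peaks that share it are among the 5. The highest SUZ12 fold lay in RESF1 (22.5), and the next at a peak between genes, 47.7 kb from NXNL2 (17.4). Peaks in ANKRD31 (17), FOXJ3 (16.3) and NKAIN3 (14.5) followed. Of these peaks, the one in NKAIN3 alone overlapped H3K27me3. JARID2 was highest at the MIR9-1 peak (21.9) and the KCNK18 peak (19.7). Peaks in ADAMTS2 (19.3), KCNT1, a potassium channel gene (15.4), and USP3, nearest to CA12 (14.8), followed. AEBP2 was highest at a peak between genes, 240 kb from its nearest coding gene, TOX3 (21.2). A peak in POLA1, a DNA polymerase subunit gene, came next (14.9). One between genes, 171 kb from TMPRSS15 (13.9), and one in TPH1, a serotonin synthesis gene (13), followed. Each of these AEBP2-ranked peaks overlapped H3K27me3, as did 118 of all 385 far peaks with AEBP2. In the order given, their H3K27me3 folds were 4.36, 3.36, 2.5 and 35.9. Their H3K4me3 folds were 3.43, 2.99, 2.82 and 5.31.

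The 179 far peaks without any of the other lists were narrow, with a median width of 314 bp and a median fold of 3.28, and 83.8% lay in gene bodies. A few were strong, and are named after their values were seen. The highest was the TRPM3 peak of 65.6, followed among named genes by PAK4, a serine/threonine kinase (21.3), the HMX1 peak (20.4) and SEMA3E, a secreted guidance factor (18). Of 355 far peaks with a fold of at least 10, 10 overlapped none of the lists (2.82%). For near peaks this share was 5.08% at a fold of 10 to 20 and 3.91% from 20 upwards.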

How the data were processed

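Lens CUT&RUN libraries were processed by the authors with Trim Galore 0.6.4, Bowtie2 2.4.1 and MACS2 2.2.7.1 on GRCg7b, per the submitters' processing notes. Pooling of libraries and the use of IgG as a control are both not given in the sources used here. Each deposited peak carries a fold, which is the ratio of its signal to the background estimated in peak calling. Its significance is the deposited −log10 q-value, and its deposited score was not used in a result. Positions were taken from the deposited start and end columns and are given 1-based.

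Peaks on assembled chromosomes were compared with the RefSeq gene table of GRCg7b (17839 protein-coding and 7517 other genes). Distances run from the nearest peak edge, and a non-coding or coding end counted when a peak lay within 1 kb. The 96 H3K4me3 peaks on other sequences were left out. No test was made, since there is 1 list per antibody. Python 3.11.15, numpy 2.4.6, pandas 2.3.3 and scipy 1.17.1 were used. The distance and overlap steps were checked on simulated data with known answers, and the other steps were not checked in this way.

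The far peaks, gene lists and microRNA list were chosen with earlier results of these data known. Genes were named by rank: the 10 highest folds, the 5 widest and 5 farthest peaks, the 10 highest H3K27me3 folds, the 5 highest folds of each PRC2 list, the genes with most far peaks, up to 8 genes of each list by fold, the 2 peaks on either side of the limit, and up to 12 microRNA genes by fold. A few genes picked this way are not reported here, though counts include them. Alternatives covered the distance limit, q limit, overlap, summit windows, lists of equal size, coding genes used and non-coding ends.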

Additional observations from a re-analysis of the deposited data

How the results depend on the processing

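Of 57 alternative values for 12 results, 28 moved by no more than the counting interval or 1.5 times the count, and 29 moved further. The number of far peaks was 2035 beyond 2 kb, 894 beyond 10 kb and 210 beyond 50 kb. Under a stricter q limit (−log10 q 5 or more in both lists), shares overlapping H3K27me3, SUZ12, JARID2 and AEBP2 were 18.2, 68.2, 22.1 and 19.3%. With 500 bp around the summit they were 18.6, 70.9, 26.7 and 24.6%. Requiring an overlap of 50% of the smaller peak gave 70.1% for SUZ12 and 28.4% for JARID2, and a 10 kb limit gave 76.4% for SUZ12. With each other list cut to the length of the H3K4me3 list, the overlap was 14.4% with H3K27me3, 31.8% with EZH2, 25% with SUZ12, 9.17% with JARID2 and 1.71% with AEBP2. There the loss follows from the fewer peaks compared.

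The share in gene bodies was 77.3% with LOC-only coding genes left out, where genes are fewer by construction, and the share at non-coding ends was 14.7% with a window of 2.5 kb. Median width was 764 bp and median fold 5.39 with the stricter q limit, and 714 bp and 5.24 beyond 10 kb. Chosen after seeing the data, the share in unmarked hosts was 30% with 5 kb windows and 46.4% at a fold of at least 10. The lens factor share, also varied after seeing the data, was 23.5% beyond 10 kb (all coding genes 3.74%) and 17.6% at a fold of at least 5 (3.21%). Where construction does not show it, the cause was not tested. No paired analysis was possible because each antibody has 1 list without values per library, although the labels number the libraries. Read depth is unknown, so an absent peak is not evidence of an absent mark.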
